A study of Mus musculus with 8 samples.

Results

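This report describes the change of state between 2 Day4 and 2 Undiff libraries of R1 mouse embryonic stem cells, sequenced as native RNA on a nanopore device (Direct RNA), across all genes and by function. The 4 libraries were taken from the 8 of the series by their labelled platform, and the other 4 libraries are PCR-amplified cDNA of the same states. Per the study's methods, Undiff cells were kept in stem cell medium with leukaemia inhibitory factor (LIF). Day4 cells were made into embryoid bodies (floating balls of differentiating cells) without LIF, and were then given retinoic acid (RA) for 4 days. The RA dose is 2 micromolar in the series' design text and 2 mM in the treatment label, and the labels call all samples embryoid bodies, also the Undiff ones. There was no group of embryoid bodies without RA, so RA, embryoid body formation, LIF withdrawal and time in culture cannot be told apart. The 2 replicates of each state were grown and treated separately. In this bulk RNA, fewer cells of a type and less RNA per cell cannot be told apart.

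In a Direct RNA run, 1 read is 1 native poly(A) RNA molecule, so a level is given as reads per 1000000 reads on genes (CPM) and is not divided by gene length. The Undiff libraries held 348457 and 907489 reads on genes, and the Day4 libraries 283461 and 737569, always in the order of replicates 1 and 2. In a single library, 3 reads correspond to between 3.31 and 10.6 CPM, so genes at a few CPM rest on a handful of reads. Eef1a1, which encodes the translation elongation factor that brings tRNA to the ribosome, was the most abundant gene in all 4 libraries. Between 18.5% and 23.2% of records were set aside by the authors' counting for low mapping quality, a class in which genes with many near-identical copies fall. The longest annotated transcripts (3000 bases or more) took 47.9% of reads in Day4 replicate 1 and 40.4% to 42.8% in the other 3 libraries.

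Mouse embryonic stem cells renew themselves under LIF through a network of transcription factors around Pou5f1, Sox2 and Nanog. RA is made from vitamin A by 2 successive oxidations and enters the nucleus, where it binds receptor pairs of a retinoic acid receptor and a retinoid X receptor on DNA. Among the genes switched on by it are those of the Hox clusters, which give cells their position along the head-to-tail axis, and those of the enzymes that break RA down again. In embryoid bodies, cells leave the stem cell state and form mixtures of the early germ layers and of extraembryonic tissues.

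Of 15451 genes with a read, 9646 had a mean normalized count of at least 5, and 1660 of these were called as changed (DESeq2, Benjamini-Hochberg adjusted p of at most 0.05 and an absolute log2 fold change of 1 or more). A total of 920 genes were higher at Day4 (9.54%) and 740 were lower (7.67%), and the median log2 fold change of the 9646 genes was 0.0252. Genes called higher took 2.4% and 2.29% of reads in the Undiff libraries and 17.3% and 15.3% in the Day4 libraries. Genes called lower went from 19.3% and 20.3% of reads to 5.34% and 5.79%. The higher genes included more of large size: 310 of the 920 had a log2 fold change of at least 4, against 125 of the 740 lower genes with a fall of that size. No Undiff read was found for 163 of the higher genes, and no Day4 read for 45 of the lower ones. Leaving out 1 library left 262 to 457 genes called higher and 131 to 399 called lower, and both counts were lowest without Undiff replicate 2, the deepest library.

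**Figure D1:**
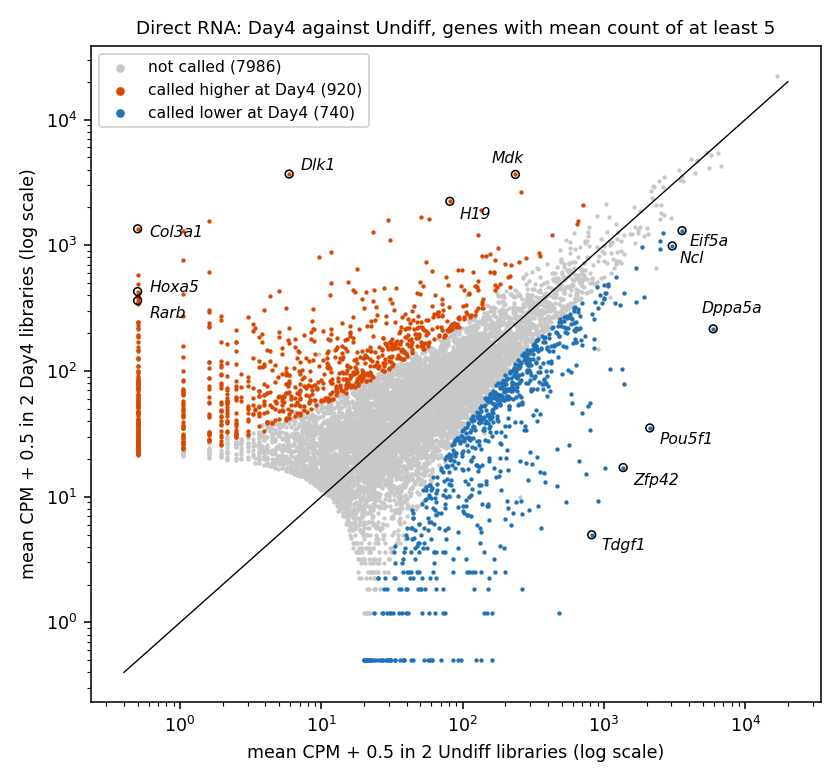
Each point is 1 of 9646 genes, with its mean CPM plus 0.5 in the 2 Undiff libraries on the x axis and in the 2 Day4 libraries on the y axis, both on log scales, and the line marks equal levels. The 920 genes called higher (orange) lie above the line and reach the left edge, where no Undiff read was found, and the 740 called lower (blue) include Dppa5a, Pou5f1 and Zfp42 at the right.

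The points at the left edge of the plot of mean levels are genes without an Undiff read, Col3a1, Hoxa5 and Rarb among them. Where a state had no read, a fold is given as a lower bound, with 3 reads over that state's pooled libraries as the floor (2.39 CPM in Undiff and 2.94 CPM at Day4). Where a state had 1 to 3 reads, the fold is a ratio of pooled reads with an exact 95% interval for counting error only. A gene with at most 3 pooled reads in a state reached the mean count of 5 through the other state alone, so that minimum largely sets its call. Of the 9646 genes, 413 were of this kind in Undiff (337 called higher) and 176 at Day4 (124 called lower).

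The genes that carry, make, break down and sense RA were mostly called higher. Of 26 genes on a list of retinoid genes, 21 had a mean count of at least 5, 14 were called higher (the share over all genes is 9.54%) and none lower. Among the 14, 7 had at most 3 Undiff reads and passed the minimum through Day4 alone, and of the 14 genes read in both states 7 were called. Together the list took 723 and 732 CPM in the Undiff libraries and 3161 and 3204 CPM in the Day4 libraries. Rarb, the receptor gene known as a direct RA target, had no read in either Undiff library and 413 and 312 CPM in the Day4 libraries (adjusted p = 2.21e-12, at least 142-fold higher). It lies at chr14:16430839-16819156, minus strand (GRCm38, the build of the files), and the RefSeq start used below lies within that span. Cyp26b1 and Cyp26a1 encode the enzymes that oxidize RA for breakdown. Cyp26b1 had 0 and 1.1 CPM in the Undiff libraries and 469 and 343 CPM in the Day4 libraries (475-fold higher with a 95% counting interval of 84.7 to 18802, adjusted p = 2.26e-14). Cyp26a1 (chr19:37697798-37701536, plus strand) had no read in either Undiff library and 123 and 94.9 CPM in the Day4 libraries (adjusted p = 5.09e-07, at least 43.1-fold higher). For all 3 genes the states were far apart and the Day4 replicates lay within 1.5 times of each other. The genes of the list are given below by role.

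The promoters of 2 of these genes are shown because they hold the textbook RA response element, a pair of receptor half-sites in the same direction. Each half-site was the consensus AGGTCA or a known variant, either AGTTCA or the form GGGTCA or lastly GGTTCA as read in Rarb, with 5 bases between them, on both strands, in the RefSeq window from 250 bases before to 50 after each gene's start (GRCm38.p6). Of 17224 genes with such a window, 12 held the repeat (0.0697%), and 2 of them were among the 19 retinoid genes with a window. Since GGTTCA was included as read in Rarb, the match in Rarb was fixed in advance. Nothing is therefore read from the count in retinoid genes against that over all windows. Capitals mark the repeat, each window is written 5′ to 3′ on the gene's strand, and in Cyp26a1 the repeat reads on the opposite strand.
Rarb, chr14:16575427-16575726, minus strand: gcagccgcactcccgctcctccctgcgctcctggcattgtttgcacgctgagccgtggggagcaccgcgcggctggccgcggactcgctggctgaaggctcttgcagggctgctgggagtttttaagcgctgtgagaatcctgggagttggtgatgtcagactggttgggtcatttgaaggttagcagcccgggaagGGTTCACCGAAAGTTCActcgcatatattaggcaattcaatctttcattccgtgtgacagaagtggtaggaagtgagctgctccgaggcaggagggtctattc
Cyp26a1, chr19:37697558-37697857, plus strand: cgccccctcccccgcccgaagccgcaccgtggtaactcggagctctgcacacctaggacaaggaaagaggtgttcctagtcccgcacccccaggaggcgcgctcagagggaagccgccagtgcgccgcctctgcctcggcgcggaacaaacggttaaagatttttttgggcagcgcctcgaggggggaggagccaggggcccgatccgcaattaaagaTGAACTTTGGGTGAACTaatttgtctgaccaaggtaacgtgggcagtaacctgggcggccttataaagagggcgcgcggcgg
The repeat begins 53 bases before the start of Rarb and 32 before that of Cyp26a1. Of the 12 genes, 8 had a mean count under 5, Blvrb (biliverdin reductase) was not called, and Rarb, Cyp26a1 and the embryonic globin gene Hbb-y were called higher. None of the 27 windows of Hox genes and their cofactors held the repeat, and repeats with 1 or 2 bases between the half-sites were in none of the windows of either list. A match of letters is a description and not a test of binding.

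Transport and binding proteins of retinoids were called higher in 5 of 6 cases. Crabp1 and Crabp2 bind RA in the cytoplasm. Crabp1 had 37.3 and 26.4 CPM in Undiff and 127 and 188 CPM at Day4 (log2 fold change 2.18, SE 0.53, adjusted p = 0.000786). Crabp2 had 8.61 and 12.1 CPM in Undiff and 74.1 and 139.6 CPM at Day4 (log2 fold change 3.03, SE 0.68, adjusted p = 0.000244). Genes for the transport of retinol between cells were called as well. Stra6, the membrane receptor that takes up retinol, had no read in either Undiff library and 24.7 and 52.9 CPM in the Day4 libraries (adjusted p = 0.00114, at least 18.9-fold higher). Rbp4, the carrier of retinol in blood, had 8.61 and 2.2 CPM in Undiff and 131 and 54.2 CPM at Day4 (log2 fold change 3.82, SE 0.83, adjusted p = 0.000112). Each of these 4 genes was higher in both Day4 libraries than in either Undiff library. Fabp5, a fatty-acid binding protein that also carries RA, had 5.74 and 3.31 CPM in Undiff and 31.8 and 29.8 CPM at Day4 and did not pass (adjusted p = 0.117).

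Of enzymes that convert between retinol, retinal and RA, 3 of the 4 with enough reads were called higher, 1 of them for the return step. Rdh10 makes retinal from retinol and Aldh1a2 makes RA from retinal. Rdh10 had 5.74 and 6.61 CPM in Undiff and 49.4 and 63.7 CPM at Day4 (log2 fold change 2.79, SE 0.83, adjusted p = 0.0106). Aldh1a2 had 0 and 2.2 CPM in Undiff and 21.2 and 40.7 CPM at Day4 (22.1-fold higher with a 95% counting interval of 5.7 to 189.8, adjusted p = 0.0256). Dhrs3, which turns retinal back to retinol, was higher than both at Day4, with 0 and 2.2 CPM in the Undiff libraries and 318 and 160.0 CPM in the Day4 libraries (128-fold higher with a 95% counting interval of 35 to 1063, adjusted p = 3.39e-11). The enzyme of the return step therefore stood at a higher read level than the enzymes of the forward steps. Rdh11, also a retinal reductase, had 34.4 and 33.1 CPM in Undiff and 63.5 and 51.5 CPM at Day4 and did not pass (adjusted p = 0.737).

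Receptors moved unevenly. Besides Rarb, Rxra was called higher, with 8.61 and 17.6 CPM in Undiff and 70.6 and 78.6 CPM at Day4 (log2 fold change 2.16, SE 0.71, adjusted p = 0.024). The other 3 receptor genes with enough reads did not pass. Rara had 43 and 45.2 CPM in Undiff and 63.5 and 50.2 CPM at Day4 (log2 fold change 0.23, adjusted p = 0.93). Rarg had 189 and 241 CPM in Undiff and 123 and 117 CPM at Day4 (log2 fold change -0.95, adjusted p = 0.12). Rxrb had 86.1 and 87.1 CPM in Undiff and 67 and 142 CPM at Day4 (log2 fold change 0.20, adjusted p = 0.93). Rarg was thus the most abundant RA receptor gene in Undiff cells and Rarb at Day4. The corepressor gene Ncor1, whose product holds receptors silent without ligand, did not pass (log2 fold change -0.70, adjusted p = 0.41). Of known RA-induced genes, Tgm2, a transglutaminase, had 11.5 and 2.2 CPM in Undiff and 106 and 94.9 CPM at Day4 (log2 fold change 3.75, SE 0.77, adjusted p = 3.76e-05). Stra8, which germ cells use to enter meiosis, had 8.61 and 0 CPM in Undiff and 67 and 43.4 CPM at Day4 (20.9-fold higher with a 95% counting interval of 6.76 to 105, adjusted p = 0.00555). The log2 fold change of Stra8 ranged from 1.15 to 5.07 over the 4 fits that leave out 1 library. The count of 14 retinoid genes became 9, 7, 11 and 5 without Day4 replicate 1, Day4 replicate 2, Undiff replicate 1 and Undiff replicate 2. Rarb, Cyp26a1, Cyp26b1 and Dhrs3 were called in each of those 4 fits.

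Hox genes appeared at Day4 from almost nothing. Of 39 Hox genes and 8 genes of their DNA-binding cofactors, 24 were called higher, none lower, and 21 had a mean count under 5. Of the 26 that reached it, 22 had at most 3 Undiff reads and did so through Day4 alone, so the count is a description and is not read against the 9.54% over all genes. Summed over the list, the level was 126 and 139.9 CPM in the Undiff libraries and 3711 and 3888 CPM in the Day4 libraries. The 19 Hox genes called had at most 1 Undiff read each, 16 of them none, and the other 20 had a mean count under 5. The highest Day4 means were those of Hoxa5 and Hoxc5. Hoxa5 had no read in either Undiff library and 293 and 563 CPM in the Day4 libraries (adjusted p = 4.86e-13, at least 204-fold higher). Hoxc5 had no read in either Undiff library and 349 and 348 CPM in the Day4 libraries (adjusted p = 2.88e-12, at least 146-fold higher). Hoxc5 shares exon sequence on its strand with Hoxc10 in the GENCODE annotation, and Hoxd3 with Hoxd4. The counts were made with a UCSC annotation, so whether reads of those pairs were left out as ambiguous was not tested. In the HoxA cluster, Hoxa4 followed with 2.87 and 0 CPM in Undiff and 205 and 304 CPM at Day4 (347-fold higher with a 95% counting interval of 61.8 to 13749, adjusted p = 2.13e-11). In the HoxB cluster, Hoxb2 was highest with no read in either Undiff library and 159 and 269.8 CPM in the Day4 libraries (adjusted p = 8.71e-10, at least 100.05-fold higher). In the HoxD cluster 3 genes were called, with Hoxd9 the highest at no read in either Undiff library and 56.4 and 36.6 CPM in the Day4 libraries (adjusted p = 0.000373, at least 17.6-fold higher).

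Day4 levels differed with position in the cluster. The paralogue number of a Hox gene gives its place from the 3′ end (1) to the 5′ end (13) of its cluster, which matches the order of expression from head to tail. Genes of paralogues 1 to 3 summed to 405.7 and 592 CPM in the 2 Day4 libraries, and 5 of 8 were called. Paralogues 4 to 6 summed to 1383 and 1901 CPM, and 9 of 10 were called. Paralogues 7 to 9 summed to 293 and 229 CPM, with 5 of 9 called. Paralogues 10 to 13 summed to 52.9 and 42 CPM, and none of the 12 was called. The middle group was thus the highest in each Day4 library and the last group the lowest. In the Undiff libraries no group summed to more than 5.51 CPM.

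**Figure D2:**
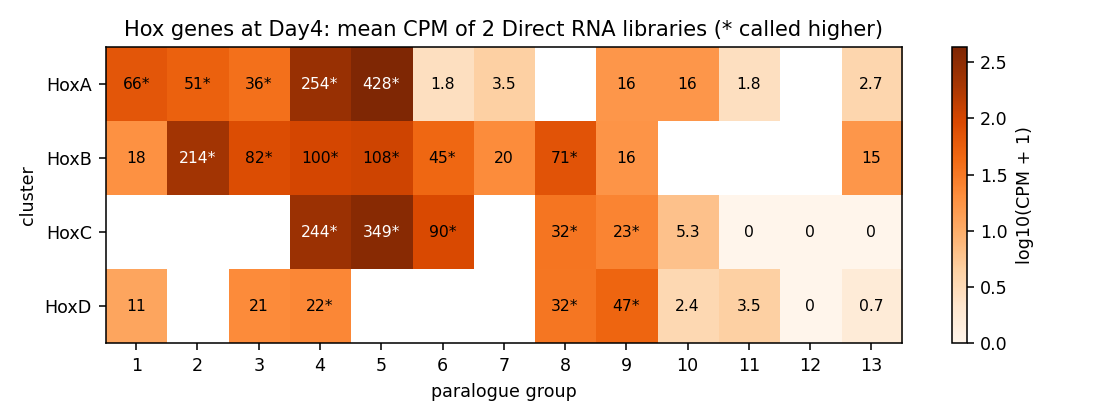
Rows are the 4 Hox clusters and columns the paralogue groups, each cell holds the mean CPM of the 2 Day4 libraries, the shade is log10(CPM + 1), a star marks genes called higher and white cells have no Hox gene. The darkest cells are Hoxa5, Hoxc5, Hoxa4, Hoxc4 and Hoxb2, and no gene of paralogues 10 to 13 has a star.

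The heat map of Hox levels also shows neighbours that differ widely, such as Hoxa5 and Hoxa6. Differences between neighbouring genes were not tested. The Hox cofactors of the PBC and MEIS families were called higher in 5 of the 7 cases with enough reads. Meis2 had 2.87 and 0 CPM in the Undiff libraries and 353 and 189.8 CPM in the Day4 libraries (295-fold higher with a 95% counting interval of 52.5 to 11708, adjusted p = 1.66e-11). Meis1 had 2.87 and 0 CPM in Undiff and 102 and 85.4 CPM at Day4 (113-fold higher with a 95% counting interval of 19.8 to 4518, adjusted p = 3.64e-06). Meis1 and Meis2 had 1 Undiff read each and so passed the minimum through Day4 alone, as did Pbx3 with 3. Pbx2, already present in Undiff cells, had 60.3 and 60.6 CPM in Undiff and 342 and 312 CPM at Day4 (log2 fold change 2.28, SE 0.40, adjusted p = 5.92e-07). In the GENCODE annotation Pbx2 overlaps Gpsm3 on the same strand. Pbx3 had 0 and 3.31 CPM in Undiff and 74.1 and 39.3 CPM at Day4 (20.5-fold higher with a 95% counting interval of 6.62 to 103, adjusted p = 0.00136). The cofactors thus ranged from genes nearly off in Undiff cells to one that was well read there. Meis3 had 2.87 and 11 CPM in Undiff and 14.1 and 85.4 CPM at Day4 and did not pass (adjusted p = 0.0883). Pknox1 had 31.6 and 34.2 CPM in Undiff and 28.2 and 35.3 CPM at Day4 and did not pass either (adjusted p = 0.948). The count of 24 became 19, 15, 18 and 14 without Day4 replicate 1, Day4 replicate 2, Undiff replicate 1 and Undiff replicate 2.

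The stem cell network fell. All 38 genes on a list of pluripotency factors and their early targets had a mean count of at least 5, 34 were called lower (7.67% over all genes; 9 of them with at most 3 Day4 reads) and none higher, with a median log2 fold change of -4.46. The list took 20404 and 24011 CPM in the Undiff libraries and 1929.7 and 2291 CPM in the Day4 libraries. Pou5f1 (chr17:35506018-35510772, plus strand), which encodes OCT4, had 2026 and 2184 CPM in the Undiff libraries and 7.06 and 62.4 CPM in the Day4 libraries (log2 fold change -5.07, SE 1.03, adjusted p = 3.52e-05). Sox2, its partner on DNA, had 534 and 601 CPM in Undiff and 14.1 and 36.6 CPM at Day4 (log2 fold change -4.33, SE 0.43, adjusted p = 9.3e-21), and the homeobox gene Nanog had 453 and 472 CPM in Undiff and 7.06 and 16.3 CPM at Day4 (log2 fold change -5.06, SE 0.51, adjusted p = 7.56e-21). All 3 core factors were separated between states in each library. The residue at Day4 was larger in replicate 2, where Pou5f1 had 46 reads against 2 in replicate 1. Without Undiff replicate 2 Pou5f1 was no longer called, with its log2 fold change between -7.60 and -4.31 over the 4 fits that leave out 1 library.

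Zfp42 (Rex1), a zinc finger gene that is read as a marker of the naive state, had 1469 and 1261 CPM in the Undiff libraries and 14.1 and 19 CPM in the Day4 libraries (log2 fold change -6.24, SE 0.43, adjusted p = 7.36e-45). Its promoter is shown because it was the only 1 of 25 windows of the pluripotency list with the octamer ATGCAAAT, a motif of the POU factor family of OCT4, found in 313 of 17224 windows (1.82%). Capitals mark the octamer, which begins 186 bases before the start and reads on the opposite strand.
Zfp42, chr8:43306960-43307259, minus strand: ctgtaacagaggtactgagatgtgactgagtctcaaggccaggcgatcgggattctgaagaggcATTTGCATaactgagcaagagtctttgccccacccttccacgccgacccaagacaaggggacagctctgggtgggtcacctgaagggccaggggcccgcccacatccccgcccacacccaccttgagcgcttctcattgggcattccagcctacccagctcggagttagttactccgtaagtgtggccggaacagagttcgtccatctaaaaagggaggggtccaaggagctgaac
Of the naive transcription factors, 12 of 13 were called lower. Klf2 had 804 and 780.2 CPM in Undiff and 24.7 and 42 CPM at Day4 (log2 fold change -4.49, SE 0.39, adjusted p = 2.56e-28). Utf1, a chromatin-bound factor, had 898 and 1126 CPM in Undiff and 7.06 and 25.8 CPM at Day4 (log2 fold change -5.67, SE 0.44, adjusted p = 3.34e-34). Other called factors of this kind were Esrrb, Sall4, Nr0b1, Klf4, Tfcp2l1, Klf5, Nr5a2 and Prdm14, with log2 fold changes between -6.06 and -3.39. Tbx3 was the only naive factor not called.

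All 9 genes on the list for Dppa and other small marker proteins and all 6 for secreted factors were called lower. Dppa5a, an RNA-binding protein of early embryos, had the largest loss in mean CPM of any called gene, with 4985 and 6849.7 CPM in the Undiff libraries and 60 and 371 CPM in the Day4 libraries (log2 fold change -4.20, SE 1.00, adjusted p = 0.0006). It kept 274 reads in Day4 replicate 2 and 17 in replicate 1, and it was not called without Undiff replicate 1 or without Undiff replicate 2. L1td1, an RNA-binding protein derived from a transposon, had 611 and 711 CPM in Undiff and 14.1 and 23 CPM at Day4 (log2 fold change -5.03, SE 0.44, adjusted p = 7.67e-27). Tdgf1 (Cripto), the coreceptor of Nodal, had 792 and 842 CPM in Undiff and 3.53 and 5.42 CPM at Day4 (log2 fold change -7.10, SE 0.62, adjusted p = 3.86e-27). Its ligand gene Nodal, the Nodal inhibitors Lefty1 and Lefty2, and the growth factor genes Gdf3 and Fgf4 were called lower too, with log2 fold changes between -6.96 and -2.87. The Nodal pathway thus fell on the side of ligand, coreceptor and inhibitors alike. DNA methylation genes split: Dnmt3l, Dnmt3b, Uhrf1 and Tet1 were called lower, and Dnmt1, Dnmt3a and Tet2 were not. Dnmt1, which copies methylation after replication, had 253 and 226 CPM in Undiff and 166 and 152 CPM at Day4 (log2 fold change -0.68, adjusted p = 0.287). The count of 34 became 31, 26, 25 and 18 without Day4 replicate 1, Day4 replicate 2, Undiff replicate 1 and Undiff replicate 2.

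**Figure D3:**
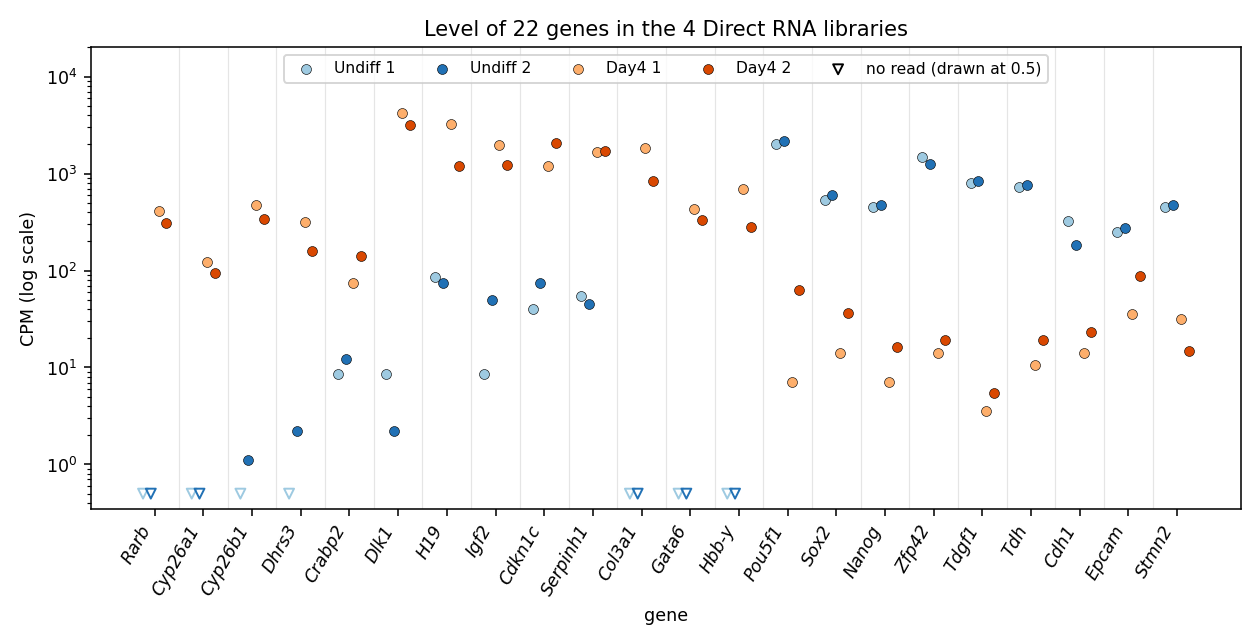
Points are the CPM (log scale) of 22 named genes in each of the 4 libraries, with blue for Undiff and orange for Day4, and open triangles at 0.5 mark libraries with no read. For every gene shown, both Day4 points lie on the same side of both Undiff points, and the Day4 points of Pou5f1 lie furthest from each other, at 7.06 and 62.4 CPM.

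The per-library plot of 22 genes shows how much of each difference is shared by replicates. H19, Col3a1 and Hbb-y were more than 2 times as high in Day4 replicate 1 as in replicate 2, whereas Pou5f1, Sox2 and Epcam were higher in replicate 2. Such differences between replicates are smaller than those between states for these genes.

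Markers of several lineages were present at Day4, and none of the marker lists summed to the level the pluripotency list had in Undiff cells. Extraembryonic endoderm forms the outer layer of embryoid bodies. Of 36 such markers 20 had enough reads, 12 were called higher, 6 of them with at most 3 Undiff reads, and 1 lower (9.54% and 7.67% over all genes), and the list took 1538 and 1802 CPM in the Undiff libraries and 5200.0 and 4282 CPM in the Day4 libraries. Gata6, the factor that sets up this lineage, had no read in either Undiff library and 427 and 332 CPM in the Day4 libraries (adjusted p = 1.26e-12, at least 150.1-fold higher). Gata4, a factor of the same family, had 2.87 and 2.2 CPM in the Undiff libraries and 349 and 188 CPM in the Day4 libraries (97.6-fold higher with a 95% counting interval of 33 to 477, adjusted p = 1.3e-12). Serpinh1 (the collagen chaperone HSP47), Sparc, Col4a1, Col4a2 and Plat, which parietal endoderm makes, were called higher, as were Afp, Apoa1, Ttr, Dab2 and Rbp4 of visceral endoderm. Several of these are also made by mesoderm. The defining endoderm factors Sox17, Sox7, Foxa1, Foxa2 and Hnf4a stayed under a mean count of 5. Apoe, a lipid carrier, went the other way, with 606 and 1096 CPM in Undiff and 155 and 206 CPM at Day4 (log2 fold change -2.30, SE 0.36, adjusted p = 1.76e-08). Laminin Lamc1 did not pass (adjusted p = 0.66). Summed, the visceral endoderm genes took 663 and 1149 CPM in the Undiff libraries, most of it Apoe, and 695 and 481 CPM at Day4. The parietal endoderm and basement membrane genes went from 858 and 640 CPM to 3687 and 3217 CPM. Serpinh1 and Sparc, which are also on the matrix list, made up most of that Day4 sum. The count of 12 was 7, 10, 11 and 5 without Day4 replicate 1, Day4 replicate 2, Undiff replicate 1 and Undiff replicate 2.

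For mesoderm and heart, 9 of 26 markers had enough reads, and 7 were called higher and none lower. Of the 7, 6 had at most 3 Undiff reads and passed the minimum through Day4 alone, so the count is not read against the 9.54% over all genes. Summed, they took 68.9 and 50.7 CPM in the Undiff libraries and 670.3 and 611 CPM in the Day4 libraries. Hand2, a heart and limb factor, had no read in either Undiff library and 250.5 and 129 CPM in the Day4 libraries (adjusted p = 4.22e-09, at least 68.1-fold higher). Foxf1, a factor of lateral and gut mesoderm, had no read in either Undiff library and 91.7 and 156 CPM in the Day4 libraries (adjusted p = 1.63e-07, at least 57.8-fold higher). Kdr, a receptor of VEGF on blood and vessel precursors, had 2.87 and 0 CPM in Undiff and 38.8 and 55.6 CPM at Day4 (64-fold higher with a 95% counting interval of 11 to 2574, adjusted p = 0.00136). Pdgfra, Gata5 and Tbx5 were called with log2 fold changes from 4.37 to 5.27. These are transcription factors and receptors rather than muscle proteins. Of the latter only Tnni1, the slow skeletal and fetal heart troponin, was called, with 8.61 and 4.41 CPM in Undiff and 77.6 and 59.7 CPM at Day4 (log2 fold change 3.11, SE 0.80, adjusted p = 0.00208). Myl7 did not pass (adjusted p = 0.514), and Myh7 and Actc1 had no read. The primitive streak genes T and Mixl1 had no Day4 read. The count of 7 became 3 without Day4 replicate 2 and 2 without Undiff replicate 2.

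Blood and vessel markers included embryonic globins. Hba-x had no read in either Undiff library and 826 and 332 CPM in the Day4 libraries (adjusted p = 1.06e-09, at least 196-fold higher). Hbb-bh1 had no read in either Undiff library and 533 and 249 CPM in the Day4 libraries (adjusted p = 2.07e-12, at least 137-fold higher). Hbb-y had no read in either Undiff library and 699 and 283 CPM in the Day4 libraries (adjusted p = 2.91e-09, at least 167-fold higher). All 3 are globins of the first red cells of the yolk sac, and each was 2.1 to 2.5 times higher in Day4 replicate 1. The adult globin Hba-a1 and the leukocyte marker Ptprc had no read. Cd34, a marker of blood stem cells and vessels, had 8.61 and 5.51 CPM in Undiff and 60 and 43.4 CPM at Day4 (log2 fold change 2.55, SE 0.84, adjusted p = 0.0261), and the endothelial genes Tie1 and Emcn were called with log2 fold changes of 4.77 and 4.45. Pecam1, an adhesion molecule of vessels that stem cells also carry, had 115 and 61.7 CPM in Undiff and 21.2 and 47.5 CPM at Day4 and did not pass (adjusted p = 0.195). In all, 6 of 9 markers with enough reads were called higher and none lower. Of the 6, 5 had at most 3 Undiff reads and passed the minimum through Day4 alone, so nothing is read from the count against the 9.54% over all genes. It was 4, 3, 4 and 3 without Day4 replicate 1, Day4 replicate 2, Undiff replicate 1 and Undiff replicate 2.

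The summed level of neural markers was lower at Day4 through Stmn2 and Tubb3, while that of the progenitor genes among them was higher. Of 32 neural and neural crest genes, 11 had a mean count of at least 5, 2 were called higher and 4 lower, and the list took 804 and 825 CPM in the Undiff libraries and 314 and 299.6 CPM in the Day4 libraries. Stmn2, a tubulin-binding protein of neurons, had 456 and 477 CPM in Undiff and 31.8 and 14.9 CPM at Day4 (log2 fold change -4.47, SE 0.46, adjusted p = 2.11e-19). Tubb3, the neuronal tubulin, had 164 and 127 CPM in Undiff and 10.6 and 14.9 CPM at Day4 (log2 fold change -3.37, SE 0.61, adjusted p = 1.64e-06). These 2 made up most of the list's reads in Undiff cells. Without them, the rest of the list summed higher in both Day4 libraries than in either Undiff library. In the cDNA libraries the whole list took 684 and 878 CPM in Undiff and 773 and 857 CPM at Day4. Foxd3, a neural crest factor that stem cells also use, had 34.4 and 40.8 CPM in Undiff and 0 and 0 CPM at Day4 (adjusted p = 0.00124, at least 13.3-fold lower). Erbb3 had 25.8 and 23.1 CPM in Undiff and 3.53 and 0 CPM at Day4 (24.4-fold lower with a 95% counting interval of 4.05 to 995, adjusted p = 0.0498), and it was called in none of the 4 fits without 1 library. Ncam1, a neural adhesion gene, and Snai2, a factor of crest and mesenchyme, went the other way. Ncam1 had 0 and 5.51 CPM in Undiff and 91.7 and 28.5 CPM at Day4 (log2 fold change 3.44, SE 0.95, adjusted p = 0.00461). Snai2 had 0 and 1.1 CPM in Undiff and 38.8 and 31.2 CPM at Day4 (41.8-fold higher with a 95% counting interval of 7.02 to 1699.9, adjusted p = 0.00665). Foxd3 and Erbb3 with at most 1 Day4 read, and Snai2 with 1 Undiff read, passed the minimum through 1 state alone, so the counts of 2 and 4 are not read against the 9.54% and 7.67% over all genes. Ncam1 was called only without Day4 replicate 2 among the 4 fits without 1 library, and Snai2 in none of them. The count of 4 lower genes became 3, 2, 3 and 2 without Day4 replicate 1, Day4 replicate 2, Undiff replicate 1 and Undiff replicate 2. The progenitor factors Sox1, Pax6, Neurog1 and Neurog2 and the intermediate filament gene Nes had at most 3, 5, 10, 5 and 40 reads, in that order, in a Day4 library, and none was called. Summed, the 12 progenitor genes took 23 and 32 CPM in the Undiff libraries and 56.4 and 122 CPM in the Day4 libraries, higher in both Day4 libraries than in either Undiff library, and the median log2 fold change of the 2 with enough reads was 1.10.

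Fibroblast and smooth muscle genes were called higher in 11 of 17 cases and lower in none (9.54% and 7.67% over all genes), and 6 of the 11 had at most 3 Undiff reads. The list of 24 took 298 and 669 CPM in the Undiff libraries and 4815 and 2839 CPM in the Day4 libraries. Twist1, a factor of mesenchyme, had 5.74 and 4.41 CPM in the Undiff libraries and 254 and 378 CPM in the Day4 libraries (log2 fold change 5.6, SE 0.65, adjusted p = 2.44e-15). Twist2, Postn and Pdgfrb were also called, and Acta2, Cald1 and Des of smooth muscle had smaller log2 fold changes of 2.05 to 2.59. The count of 11 was 7 to 9 in the 4 fits without 1 library. Tpm1 had 94.7 and 256 CPM in Undiff and 416 and 409 CPM at Day4 and did not pass (adjusted p = 0.091). The mature fibroblast genes Dcn and Lum had at most 2 and 1 reads in a library. Trophoblast markers showed no such gain: 4 of 12 had enough reads and only Tfap2c was called, lower, with 57.4 and 169 CPM in Undiff and 3.53 and 9.49 CPM at Day4 (log2 fold change -3.78, SE 0.77, adjusted p = 3.09e-05), though not without Undiff replicate 2. Peg10, an imprinted gene of placenta, had 40.2 and 72.7 CPM in Undiff and 183 and 62.4 CPM at Day4 (adjusted p = 0.444).

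**Figure D4:**
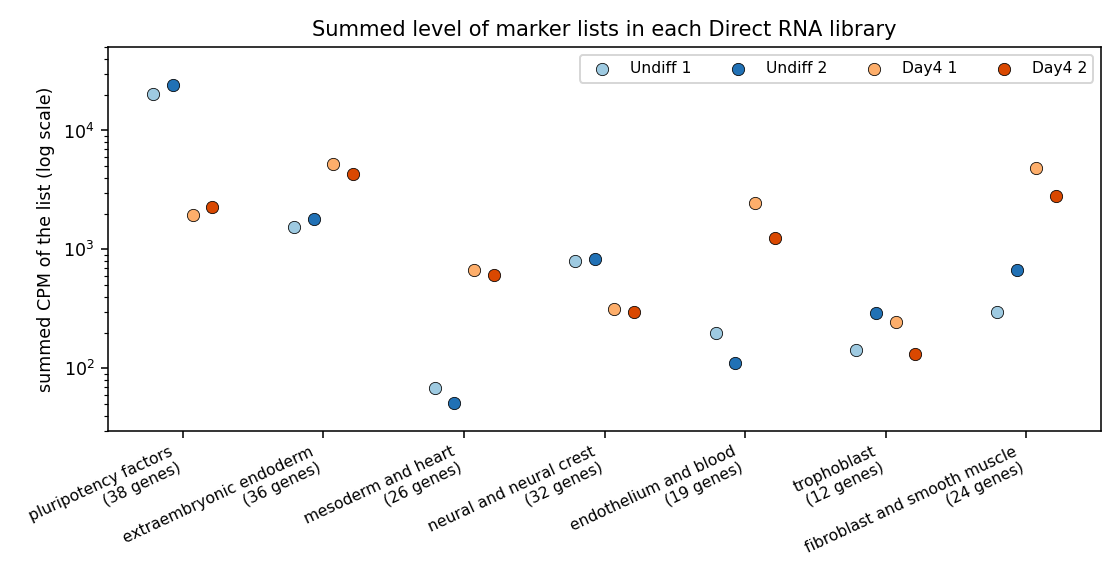
Each point is the summed CPM (log scale) of all genes of a marker list in 1 library, with blue for Undiff and orange for Day4. The pluripotency sums fall by about a factor of 10, and the endoderm, mesoderm, vessel and blood, and fibroblast sums are higher in both Day4 libraries. The neural sum is lower through Stmn2 and Tubb3, and the trophoblast sums of the states overlap.

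As the plot of summed marker levels shows, Day4 replicate 1 was higher than replicate 2 for 6 of the 7 lists and lower for pluripotency. The labelled Undiff state thus held its defining markers in both libraries and the labelled Day4 state had lost most of them. Which cells carried the Day4 markers was not tested, since the RNA is from mixed cells.

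Extracellular matrix genes, which form the scaffold around cells, were mostly higher. Of 50, 42 had enough reads, 25 were called higher (9.54% over all genes), 10 of them with at most 3 Undiff reads, and none lower, with a median log2 fold change of 2.72 and sums of 2933 and 2629 CPM in the Undiff libraries and 14048 and 9826 CPM in the Day4 libraries. Col3a1 (chr1:45311538-45349706, plus strand), a fibrillar collagen, had no read in either Undiff library and 1852 and 847 CPM in the Day4 libraries (adjusted p = 1.26e-14, at least 472-fold higher). Col1a2 had no read in either Undiff library and 533 and 150.5 CPM in the Day4 libraries (adjusted p = 2.26e-05, at least 107-fold higher). Col1a1 had 5.74 and 1.1 CPM in Undiff and 448 and 164 CPM at Day4 (102-fold higher with a 95% counting interval of 34.4 to 496, adjusted p = 1.4e-06). All 3 fibrillar chains were over 2 times higher in Day4 replicate 1 than in replicate 2. In total 10 of 12 collagen chains with enough reads were called, those of basement membranes (Col4a1, Col4a2, Col4a5) included. Laminins and nidogens did not follow: none of 8 was called, and their median was -0.51.

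Matrix-modifying proteins were called higher in 9 of 13 cases. Serpinh1, which folds collagen in the endoplasmic reticulum, had 54.5 and 45.2 CPM in the Undiff libraries and 1651 and 1712 CPM in the Day4 libraries (log2 fold change 4.94, SE 0.32, adjusted p = 7.03e-49). The others were the proteases Mmp2 and Mmp14, their inhibitors Timp2 and Timp3, the prolyl hydroxylases P4ha1 and P4ha2 and the cross-linking enzymes Loxl1 and Loxl2, with log2 fold changes of 2.77 to 6.23. P4hb, the shared subunit of the prolyl hydroxylases, had 703 and 435 CPM in Undiff and 991 and 898 CPM at Day4 and did not pass (adjusted p = 0.176). Ecm1, a secreted matrix glycoprotein, had 0 and 2 reads in Undiff and 427 and 1202 reads at Day4 (1002-fold higher with a 95% counting interval of 277 to 8280.0, adjusted p = 2.46e-29). Sparc, a collagen-binding glycoprotein, was already present in Undiff cells, with 436 and 256 CPM in Undiff and 1048 and 699.6 CPM at Day4 (log2 fold change 1.23, SE 0.33, adjusted p = 0.00363). The count of 25 matrix genes became 12, 17, 20 and 12 without Day4 replicate 1, Day4 replicate 2, Undiff replicate 1 and Undiff replicate 2.

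Adhesion genes were called in both directions. Cdh1 (E-cadherin) had 324 and 183 CPM in Undiff and 14.1 and 23 CPM at Day4 (log2 fold change -3.63, SE 0.53, adjusted p = 1.01e-09). Epcam had 247 and 272 CPM in Undiff and 35.3 and 86.8 CPM at Day4 (log2 fold change -2.06, SE 0.46, adjusted p = 0.000203). Cldn4, of tight junctions, and the keratin Krt42 were called lower as well. Keratins Krt8, Krt18 and Krt19 and desmoplakin (Dsp) were called higher. Krt18, for example, had 60.3 and 72.7 CPM in Undiff and 261 and 323 CPM at Day4 (log2 fold change 1.97, SE 0.41, adjusted p = 5.25e-05). Of the 13 epithelial genes with enough reads, 4 were thus called higher and 5 lower (9.54% and 7.67% over all genes). Over all adhesion genes, 2 called higher had at most 3 Undiff reads and 1 called lower at most 3 Day4 reads. Of 10 mesenchymal adhesion genes with enough reads, 5 were called higher and none lower. Cdh11 had no read in either Undiff library and 395 and 301 CPM in the Day4 libraries (adjusted p = 3.55e-12, at least 137-fold higher). Vim (vimentin) had 181 and 128 CPM in Undiff and 871 and 828 CPM at Day4 (log2 fold change 2.36, SE 0.31, adjusted p = 6.84e-12). Itgb1, an integrin chain, had 215 and 120.1 CPM in Undiff and 550.3 and 334 CPM at Day4 (log2 fold change 1.29, SE 0.39, adjusted p = 0.0114). Cdh2 (N-cadherin), the cadherin of mesenchyme and neural tissue, and Snai2 were the other 2. Of 14 actin-linked genes with enough reads, Zyx and Anxa2 were called higher and Ctgf and S100a6 lower. S100a6, a calcium-binding protein, had 456 and 245 CPM in Undiff and 14.1 and 16.3 CPM at Day4 (log2 fold change -4.42, SE 0.53, adjusted p = 1.85e-14). Tmsb4x, which holds free actin, had 1039 and 1402 CPM in Undiff and 1341 and 1623 CPM at Day4 (adjusted p = 0.893). The 11 adhesion genes called higher became 4 to 6 in the 4 fits without 1 library, and the 7 called lower became 3 to 5.

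Imprinted genes, which are read from 1 parental copy, held several of the largest gains. Of 30 genes on a list of imprinted genes and the insulin-like growth factor (IGF) system, 17 of 26 with enough reads were called higher, 3 of them with at most 3 Undiff reads, and 1 lower (9.54% and 7.67% over all genes), with sums of 1676 and 1842 CPM in the Undiff libraries and 20998 and 16529 CPM in the Day4 libraries. Dlk1 (chr12:109452823-109463336, plus strand), a Notch-like membrane protein, had the largest gain in mean CPM of any called gene, with 8.61 and 2.2 CPM in the Undiff libraries and 4205 and 3162 CPM in the Day4 libraries (log2 fold change 9.22, SE 0.59, adjusted p = 5.17e-51). H19, a long non-coding RNA, had 86.1 and 74.9 CPM in the Undiff libraries and 3270.3 and 1199.9 CPM in the Day4 libraries (log2 fold change 4.43, SE 0.66, adjusted p = 2.77e-09). Its neighbour Igf2, a fetal growth factor, had 8.61 and 49.6 CPM in the Undiff libraries and 1961 and 1234 CPM in the Day4 libraries (log2 fold change 4.91, SE 0.95, adjusted p = 9.73e-06). Over the 4 fits that leave out 1 library, the log2 fold change of Igf2 ranged from 3.88 to 6.86. H19 and Igf2 are expressed from opposite parental copies, and both rose in both Day4 libraries. Mest had 141 and 129 CPM in Undiff and 2060.2 and 1737 CPM at Day4 (log2 fold change 3.68, SE 0.28, adjusted p = 2.72e-35). Gnas, whose main product is a stimulatory G protein subunit, had 249.7 and 267 CPM in Undiff and 2600.0 and 2719.8 CPM at Day4 (log2 fold change 3.23, SE 0.26, adjusted p = 2.75e-32). Cdkn1c, an inhibitor of cyclin-dependent kinases, had 40.2 and 73.8 CPM in Undiff and 1192 and 2057 CPM at Day4 (log2 fold change 4.58, SE 0.38, adjusted p = 4.42e-31).

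Paternally expressed genes were called higher in 8 of 10 cases and maternally expressed ones in 4 of 8. Peg3, Nnat, Ndn, Plagl1 and Sgce of the first kind had log2 fold changes of 2.72 to 5.16, and Grb10 of the second 3.16. Phlda2, which limits placental growth, was the 1 gene called lower, with 166 and 235 CPM in Undiff and 14.1 and 25.8 CPM at Day4 (log2 fold change -3.23, SE 0.54, adjusted p = 1.54e-07). Reads were not assigned to parental copies, so which copy they came from was not tested. Among IGF-binding proteins, Igfbp5 had 0 and 1 reads in Undiff and 506 and 608 reads at Day4 (1370.3-fold higher with a 95% counting interval of 245 to 54172, adjusted p = 9.65e-23). Igfbp4 had 11.5 and 11 CPM in Undiff and 744 and 1013 CPM at Day4 (log2 fold change 6.01, SE 0.48, adjusted p = 7.48e-33). Igfbp2 had 651 and 584 CPM in Undiff and 374 and 386 CPM at Day4 and did not pass (adjusted p = 0.0553). Igfbp2 was thus the most abundant of them in Undiff cells, and Igfbp5 and Igfbp4 were above it at Day4. The count of 17 was 13 to 14 in the 4 fits without 1 library.

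Signalling genes were called in both directions, 13 of 45 higher, 5 of them with at most 3 Undiff reads, and 6 lower (9.54% and 7.67% over all genes), 1 of them with at most 3 Day4 reads. Wnt genes were called higher in 8 of 16 cases and lower in 1 (Fzd5). Sfrp1, a secreted Wnt antagonist, had 11.5 and 23.1 CPM in Undiff and 758 and 531 CPM at Day4 (log2 fold change 4.84, SE 0.45, adjusted p = 1.91e-24), and the receptor Fzd7 had 83.2 and 58.4 CPM in Undiff and 381 and 163 CPM at Day4 (log2 fold change 1.79, SE 0.47, adjusted p = 0.00274). The ligands Wnt5a, Wnt5b and Wnt11, the receptors Fzd1 and Fzd2 and the antagonist Sfrp2 were the others called higher. Axin2 and Lef1, common readouts of Wnt signalling through beta-catenin, were not called. Among BMP and TGF-beta genes 5 of 15 were called higher and none lower. Id3 had 118 and 138 CPM in Undiff and 977 and 1452 CPM at Day4 (log2 fold change 3.09, SE 0.32, adjusted p = 6.69e-19). Id2 had 77.5 and 106 CPM in Undiff and 624 and 647 CPM at Day4 (log2 fold change 2.61, SE 0.34, adjusted p = 5.04e-12). Both are classic BMP targets, as is Id1. Id1 had 244 and 130.0 CPM in Undiff and 388 and 401 CPM at Day4 and did not pass (adjusted p = 0.0593). The other 3 called were the receptor Bmpr2, the ligand Tgfb2 and the inhibitor Smad6. Of 9 FGF feedback genes and targets of ERK signalling with enough reads, 4 were called lower and none higher. Etv5 had 264 and 326 CPM in Undiff and 10.6 and 4.07 CPM at Day4 (log2 fold change -5.38, SE 0.64, adjusted p = 1.46e-14). Etv4 had 135 and 82.6 CPM in Undiff and 10.6 and 2.71 CPM at Day4 (log2 fold change -4.05, SE 0.77, adjusted p = 7.23e-06). Spry4 had 126 and 100.3 CPM in Undiff and 21.2 and 5.42 CPM at Day4 (log2 fold change -3.21, SE 0.68, adjusted p = 8.32e-05). Spry2 was the other. Socs3, the feedback inhibitor of LIF signalling, had 155 and 148 CPM in Undiff and 31.8 and 23 CPM at Day4 (log2 fold change -2.52, SE 0.53, adjusted p = 7.64e-05). The other 4 LIF pathway genes with enough reads (Jak1, Stat3, Il6st, Lifr) were not called. The 13 signalling genes called higher became 7, 11, 9 and 8, and the 6 called lower 5, 2, 3 and 2, without Day4 replicate 1, Day4 replicate 2, Undiff replicate 1 and Undiff replicate 2.

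Cell cycle genes were lower at Day4 in a minority of cases. Of 68 genes for DNA replication, mitosis and the G1 phase, 66 had enough reads, 11 were called lower (7.67% over all genes) and 2 higher. Ccne1 (cyclin E1), which drives entry into S phase and is high in stem cells, had 376 and 451 CPM in Undiff and 56.4 and 81.3 CPM at Day4 (log2 fold change -2.60, SE 0.39, adjusted p = 2.56e-09). Ccnd2 (cyclin D2) had 14.3 and 5.51 CPM in Undiff and 91.7 and 94.9 CPM at Day4 (log2 fold change 3.08, SE 0.71, adjusted p = 0.000397). The 2 genes called higher were Ccnd2 and the inhibitor Cdkn1c. Of the replication genes Rfc5, a clamp loader subunit, had 319 and 317 CPM in Undiff and 74.1 and 102 CPM at Day4 (log2 fold change -1.89, SE 0.39, adjusted p = 4.14e-05). Mcm5, of the replicative helicase, had 795 and 522 CPM in Undiff and 321 and 296 CPM at Day4 (log2 fold change -1.17, SE 0.31, adjusted p = 0.00337). Mcm10, Cdc6 and Pole were also lower, as were Ccnd1 and the mitosis genes Bub1b, Aurka and Kif11. Cdc20, which lets cells leave mitosis, had 448 and 441 CPM in Undiff and 134 and 187 CPM at Day4 (log2 fold change -1.52, SE 0.34, adjusted p = 0.000271). The proliferation marker Mki67 and the clamp gene Pcna were not called. Cdk4 had 700.2 and 873 CPM in Undiff and 1192 and 1605 CPM at Day4 and did not pass (adjusted p = 0.0872). The median of the replication genes was -0.73 and that of the mitosis genes -0.87, against 0.0252 for all genes. The count of 11 became 5, 4, 3 and 1 without Day4 replicate 1, Day4 replicate 2, Undiff replicate 1 and Undiff replicate 2.

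Genes of threonine and 1-carbon metabolism were lower at Day4 in part. Mouse stem cells break down threonine to feed 1-carbon units into S-adenosylmethionine and nucleotides. Of 18 genes for threonine, glycine and 1-carbon metabolism, all had enough reads, 9 were called lower (7.67% over all genes) and none higher, and the list took 4023 and 3918 CPM in the Undiff libraries and 1129 and 1419.5 CPM in the Day4 libraries. Tdh, the threonine dehydrogenase of that pathway, had 726 and 763 CPM in the Undiff libraries and 10.6 and 19 CPM in the Day4 libraries (log2 fold change -5.48, SE 0.46, adjusted p = 4.39e-30). It lost nearly all of its reads in both Day4 libraries. Psat1, of serine synthesis, had 453 and 321 CPM in Undiff and 88.2 and 109.8 CPM at Day4 (log2 fold change -2.0, SE 0.38, adjusted p = 5.18e-06). Gcsh, of glycine cleavage, had 442 and 439.7 CPM in Undiff and 155 and 159 CPM at Day4 (log2 fold change -1.57, SE 0.33, adjusted p = 8.53e-05). Mat2a, which makes S-adenosylmethionine, had 289.8 and 372 CPM in Undiff and 95.3 and 141 CPM at Day4 (log2 fold change -1.54, SE 0.39, adjusted p = 0.00145). Gldc, Shmt1, Shmt2, Mthfd1 and Mthfd2 were the other 5. The count of 9 was 4 to 7 in the 4 fits without 1 library, and lowest without Undiff replicate 2. Asns, which makes asparagine, was also lower, with 324 and 240.2 CPM in Undiff and 70.6 and 123 CPM at Day4 (log2 fold change -1.55, SE 0.41, adjusted p = 0.0032).

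In glycolysis 3 of 19 genes were called higher and 2 lower, against 9.54% and 7.67% over all genes, and nothing is read from these counts about the list. Tpi1 (triose phosphate isomerase) had 628 and 789 CPM in Undiff and 1852 and 2310.3 CPM at Day4 (log2 fold change 1.43, SE 0.27, adjusted p = 7.53e-06). Gpi1, which turns glucose phosphate into fructose phosphate, had 410.4 and 445 CPM in Undiff and 1295 and 1117 CPM at Day4 (log2 fold change 1.37, SE 0.27, adjusted p = 2.01e-05). Slc16a3, a lactate exporter, had 123 and 114 CPM in Undiff and 688 and 531 CPM at Day4 (log2 fold change 2.22, SE 0.33, adjusted p = 2.91e-09). All 3 were higher in both Day4 libraries than in either Undiff library. The glucose transporter Slc2a3 had 640.0 and 717 CPM in Undiff and 359.8 and 184 CPM at Day4 (log2 fold change -1.44, SE 0.35, adjusted p = 0.000795). Pfkp, a phosphofructokinase, had 212 and 184 CPM in Undiff and 24.7 and 35.3 CPM at Day4 (log2 fold change -2.68, SE 0.49, adjusted p = 2.92e-06). Pkm, the last step, had 3105 and 3791 CPM in Undiff and 3182 and 3429 CPM at Day4 (adjusted p = 0.861). Tpi1 and Gpi1 were not called without Undiff replicate 1, nor Slc2a3 without Undiff replicate 2 or without Day4 replicate 2. Gapdh had only 5 to 23 reads in a library, and its level is not read here because it has many near-identical copies. In the respiratory chain 2 of 26 genes (Uqcrc1 and Uqcrq) were called lower, a share near the 7.67% over all genes, both within 0.1 of the threshold of -1. Uqcrc1 was called in none and Uqcrq in 1 of the 4 fits without 1 library. Slc25a5, the carrier that exchanges ADP and ATP across the inner mitochondrial membrane, had 1722 and 2129 CPM in Undiff and 356 and 424 CPM at Day4 (log2 fold change -2.38, SE 0.28, adjusted p = 2.77e-15). Of 21 cholesterol synthesis genes with enough reads only Cyp51 was called (9.54% over all genes), higher, with 60.3 and 51.8 CPM in Undiff and 243 and 159 CPM at Day4 (log2 fold change 1.69, SE 0.46, adjusted p = 0.00419), and in none of the 4 fits without 1 library. Hmgcs1 had 123 and 171 CPM in Undiff and 335 and 209 CPM at Day4 (adjusted p = 0.306).

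Few genes for making protein were called, against shares of 9.54% higher and 7.67% lower over all genes. Of 71 ribosomal protein genes with enough reads, Rps24 was called higher, with 700.2 and 577 CPM in Undiff and 1379 and 1563 CPM at Day4 (log2 fold change 1.10, SE 0.26, adjusted p = 0.000665), and Rpl27 lower, with 316 and 365 CPM in Undiff and 77.6 and 118 CPM at Day4 (log2 fold change -1.84, SE 0.39, adjusted p = 7.84e-05). Rps24 was called in 1 and Rpl27 in 3 of the 4 fits without 1 library. Their summed level differed more between Day4 replicates (50394 and 55067 CPM in the Undiff libraries and 44278 and 62894 CPM in the Day4 libraries) than between the means of the states. The lowest of those sums was in Day4 replicate 1, the library with the largest share of reads on long transcripts, and the part of read length in it was not tested. Rps20, the most abundant of them, had 4798 and 5946 CPM in Undiff and 4463 and 6619 CPM at Day4 (adjusted p = 0.935). Among 45 genes of the secretory pathway only Kdelr1, the receptor that returns chaperones to the endoplasmic reticulum, was called, with 89 and 111 CPM in Undiff and 367 and 283 CPM at Day4 (log2 fold change 1.53, SE 0.38, adjusted p = 0.00141), and in none of the 4 fits without 1 library. Calr had 1237 and 849.6 CPM in Undiff and 1404 and 1125 CPM at Day4 (adjusted p = 0.877).

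Splicing factors, which choose exons in precursor RNA, were called in both directions, with 3 of 38 called higher and 4 lower, shares near those of all genes. Srsf2 had 999 and 998 CPM in Undiff and 504 and 466 CPM at Day4 (log2 fold change -1.14, SE 0.27, adjusted p = 0.000582), and Srsf6 and Srsf1 were lower with log2 fold changes of -1.12 and -1.02 (adjusted p = 0.00876 and 0.017). Esrp1, an epithelial splicing regulator, had 40.2 and 66.1 CPM in Undiff and 7.06 and 10.8 CPM at Day4 (log2 fold change -2.41, SE 0.81, adjusted p = 0.0312). Ptbp2, which represses neuronal exons, had 23 and 14.3 CPM in Undiff and 116 and 50.2 CPM at Day4 (log2 fold change 1.95, SE 0.69, adjusted p = 0.0429), and Hnrnpr and Hnrnph3 were higher by 1.13 and 1.5 (adjusted p = 0.0324 and 0.0164). None of the 3 higher genes was called in any fit without 1 library, and of the lower ones Srsf2 was called in 2, Srsf6 in 1, and Srsf1 and Esrp1 in none of these 4 fits. Hnrnpab, an RNA-binding protein, passed the p threshold but not the fold threshold (log2 fold change -0.67, adjusted p = 0.049).

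Among stress genes, Hsp90aa1, a chaperone, had 1722 and 1645 CPM in Undiff and 359.8 and 349.8 CPM at Day4 (log2 fold change -2.33, SE 0.26, adjusted p = 1.79e-16), while its paralogue Hsp90ab1 had 6649 and 6076 CPM in Undiff and 5821 and 5059.9 CPM at Day4 (adjusted p = 0.482). Of the other heat shock genes on the list none was called. Jun, an immediate early factor, had 2.87 and 7.71 CPM in Undiff and 236 and 117 CPM at Day4 (log2 fold change 4.43, SE 0.69, adjusted p = 1.4e-08). Ddit4, an inhibitor of mTOR signalling, had 215 and 123 CPM in Undiff and 826 and 701 CPM at Day4 (log2 fold change 2.08, SE 0.33, adjusted p = 4.52e-08). Fos, Fosb, Egr1 and Junb of the same class as Jun were not called. Of the 20 stress genes with enough reads, 2 were called in each direction (9.54% higher and 7.67% lower over all genes). The 2 called lower became 1 in 3 of the 4 fits without 1 library (all but that without Day4 replicate 2) and 7 under edgeR's quasi-likelihood test.

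Of the 12 genes with the largest gain in mean CPM, Mdk is the only gene outside the lists. It encodes midkine, a heparin-binding growth factor first found through its induction by RA, and had 247 and 224 CPM in the Undiff libraries and 3253 and 4059 CPM in the Day4 libraries (log2 fold change 3.83, SE 0.27, adjusted p = 2e-43). By adjusted p, Gpc3 and Itm2a joined. Gpc3 is a cell surface heparan sulphate proteoglycan that restrains growth, with 14.3 and 30.9 CPM in Undiff and 1468 and 1072 CPM at Day4 (log2 fold change 5.44, SE 0.40, adjusted p = 3.29e-39). Itm2a is a membrane protein of cartilage and muscle precursors, with 34.4 and 25.3 CPM in Undiff and 1334 and 872 CPM at Day4 (log2 fold change 5.05, SE 0.39, adjusted p = 1.04e-34). Outside the lists, Eif5a and Ncl had the largest losses in mean CPM. Eif5a, a translation elongation factor, had 3625 and 3502 CPM in Undiff and 1235 and 1378 CPM at Day4 (log2 fold change -1.54, SE 0.24, adjusted p = 1.07e-08). Ncl (nucleolin) had 3165 and 2912 CPM in Undiff and 1122 and 850.1 CPM at Day4 (log2 fold change -1.72, SE 0.25, adjusted p = 9.74e-10). Prdx1, a peroxidase, and Slc25a5, given above, came next. Prdx1 had 2405 and 2591 CPM in Undiff and 751 and 1123 CPM at Day4 (log2 fold change -1.5, SE 0.28, adjusted p = 3.23e-06). Ybx1, an mRNA-binding protein, had 2399 and 2824 CPM in Undiff and 1125 and 1372 CPM at Day4 (log2 fold change -1.16, SE 0.26, adjusted p = 0.000203). Eif5a, Ncl and Ybx1 fell by a factor of about 2 to 3 and stayed among abundant genes. Trim28, a corepressor of transposons on the pluripotency list, had 2442 and 2562 CPM in Undiff and 1101 and 1079 CPM at Day4 (log2 fold change -1.30, SE 0.24, adjusted p = 4.26e-06). Deeper falls were those of Mkrn1, a ubiquitin ligase, and Chchd10, a mitochondrial protein. Mkrn1 had 1421 and 1348 CPM in Undiff and 52.9 and 104 CPM at Day4 (log2 fold change -4.10, SE 0.34, adjusted p = 4.42e-31). Chchd10 had 1202 and 1461 CPM in Undiff and 84.7 and 123 CPM at Day4 (log2 fold change -3.70, SE 0.32, adjusted p = 1.36e-27).

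**Figure D5:**
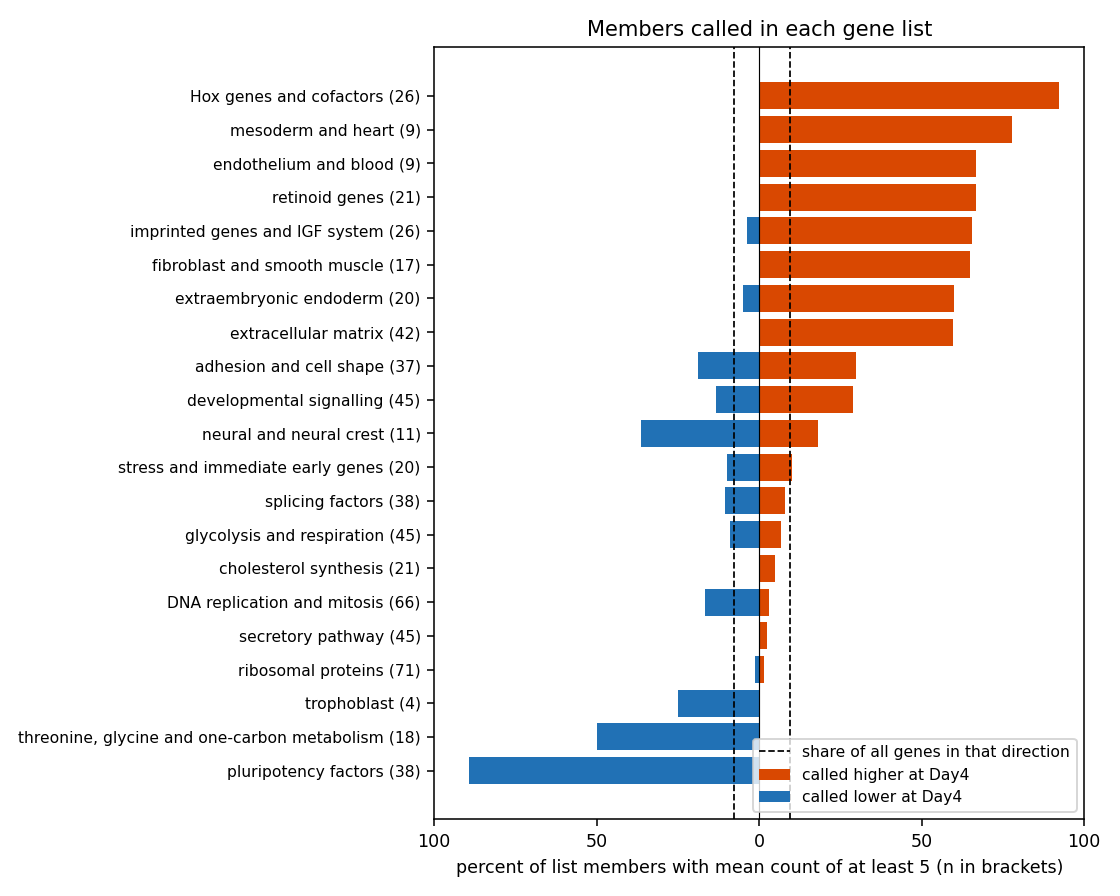
Bars give the percent of the members with a mean count of at least 5 that were called higher (orange, right) or lower (blue, left) in each of 21 gene lists, with that number of members in brackets, and dashed lines mark the shares over all genes, 9.54% and 7.67%. Hox genes and cofactors and pluripotency factors are at the 2 ends, and splicing factors, glycolysis and respiration, and stress genes lie near the lines.

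The plot of list shares sets the functions side by side. Lists at the top and bottom were chosen with the outcome known, and members read in 1 state only count in the bars, so their distance from the dashed lines is a description and not a test. The shares called lower differed by length of the longest transcript. They were 10.8% of 1085 genes under 1500 bases, 9.14% of 2975 between 1500 and 3000 bases, and 6.31% of 5566 genes of 3000 bases or more. For calls in the other direction the shares were 8.48%, 9.75% and 9.65%. Day4 replicate 1 had 14.2% of its reads on transcripts under 1500 bases, against 18.4% to 20.2% in the other libraries. The part of read length in these shares was not tested.

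The 4 cDNA libraries hold the same 2 states with 2 replicates each. Per the study, RNA of the same cultures was used on each platform. Shared calls therefore repeat the measurement and not the culture. Fitted alone, they gave 893 of 10271 genes higher (8.69%) and 949 lower (9.24%). Of the genes called higher in Direct RNA, 540 were also called higher in cDNA (58.7% of the Direct RNA calls and 60.5% of the cDNA calls), and 1 was called lower. For lower genes 452 were shared (61.1% and 47.6%) and none was called in the opposite direction. A test of the difference of the change between platforms (DESeq2 interaction of platform and state) passed for 2 of 17267 genes (0.0116%), and for none of the 166 genes chosen by the rule for named genes. Those 2, named after their values were seen, are Clmp, a cell adhesion molecule, and Plvap, an endothelial membrane protein on the vessel list. Clmp, the gene with opposite calls, went from 1 and 1 reads in Undiff to 27 and 40 reads at Day4 when read as RNA, while its cDNA mean went from 44.8 to 16.7 CPM (interaction adjusted p = 0.00246). Plvap was not called in Direct RNA, with 31.6 and 19.8 CPM in Undiff and 98.8 and 81.3 CPM at Day4, and was called lower in cDNA, from a mean of 25.1 to 5.68 CPM (interaction adjusted p = 0.0386). For Rarb the cDNA log2 fold change was 6.85, for Dlk1 7.49, for Pou5f1 -5.08 and for Zfp42 -5.33, each called in cDNA. A gene called on 1 platform only is not shown to differ between them. The interaction fit took all libraries as independent and did not pair those of the same culture.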

How the data were processed

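Poly(A) RNA of 2 Undiff and 2 Day4 cultures was sequenced directly on nanopore devices. The deposited counts are whole numbers of reads per gene, made by the authors with minimap2 (mm10, spliced alignment, no secondary alignments) and HTSeq, using strand and a UCSC gene annotation. HTSeq's counters of unassigned records were left out, so 55.0% to 61.9% of records entered. Reads had been base-called with 2 programs, and which library had which is not given in the sources used here. Changes were fitted with DESeq2 1.42.0 in R 4.3.3 after the study's methods (shrunken fold changes, with neither Cook's cutoff nor independent filtering). Calls needed an adjusted p up to 0.05, an absolute log2 fold change of 1 or more, and 5 or more normalized reads on average. With 2 replicates per state, no exact permutation test of a single gene can reach 0.05. The fit was tested on simulated data. Replicates differed by more than sampling noise (chi-square per degree of freedom 2.67 for Undiff and 4 for Day4), so none was merged. Positions are from GENCODE vM21 (GRCm38, 98.5% of 24421 symbols matched), promoters from RefSeq GRCm38.p6. The 21 gene lists (770 genes) and the comparisons were chosen with earlier results of these data known. Named were the 12 called genes with the largest gain and the 12 with the largest loss in mean CPM, the 8 with the smallest adjusted p in each direction, up to 4 called members per list and direction by mean count and the most abundant one not called, the core pluripotency factors, and all retinoid and Hox-list genes with a mean count of at least 5. Other list members are named only to complete a count, chosen after their values were seen, and some genes that the rule names are not reported here, though counts include them. Alternatives tried were edgeR 4.0.16, no shrinkage, TMM factors, a filter of 10 reads in 2 libraries, Cook's cutoff with independent filtering, a replicate block, thinning to 283461 reads, and leaving out each library.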

Additional observations from a re-analysis of the deposited data

How the results depend on the processing

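With 920 genes called higher and 740 lower, edgeR's quasi-likelihood test gave 1808 and 1459 and included 1659 of the 1660. Thinning each library to the smallest gave 544 and 419, and leaving out 1 library gave 262 to 457 and 131 to 399, so depth and the number of libraries limit how many genes pass. No shrinkage, TMM factors, the filter on low counts, and Cook's cutoff with independent filtering gave counts within 1.5 times, and no alternative called a gene in the opposite direction. A fit with the replicate number as a block gave 455 and 388. The labels do not say that equal numbers mark a shared culture. Deviations of same-numbered libraries correlated at r = 0.173 over 2640 genes (across genes, which are not independent). With 2 pairs, that value cannot decide whether equal numbers share a batch. Replicate 1 was also the shallower library in both states, so replicate number and depth cannot be told apart. The main fit has no block, since the study's methods name none. Of 42 counts of list members, 13 moved by over 1.5 times under that replicate block, 11 under edgeR, 8 when thinned and 13 to 26 when 1 library was left out. Under the block the counts of genes called higher were 8 for retinoid genes (14), 15 for Hox genes and cofactors (24), 3 for mesoderm and heart (7), 1 for vessel and blood (6), 6 for fibroblast (11), 16 for matrix (25) and 6 for adhesion genes (11), and 0 for neural (2), cholesterol (1) and splicing genes (3). Those called lower were 5 for replication and mitosis (11), 4 for adhesion (7) and 2 for splicing genes (4). Under edgeR 22 signalling genes were higher (13), 9 ribosomal proteins (1) and 7 stress genes (2) lower. Of 166 named genes, 160 kept their direction and their call under edgeR, 132 under the block and 146 when thinned, and 132, 127, 129 and 102 did without Day4 replicate 1, Day4 replicate 2, Undiff replicate 1 and Undiff replicate 2. The direction turned for 5 genes, none of them called, when 1 library was left out: log2 fold changes ranged from -0.454 to 0.648 for Rxrb, -0.29 to 0.0545 for Pknox1, -0.151 to 0.412 for Tmsb4x, -0.387 to 0.262 for Rps20 and -0.0673 to 0.323 for Calr. Where a fit leaves 1 library in a state, that library is assumed to vary like the others.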

Other observations

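Ribosomal protein genes gave different counts on the 2 platforms. Of 71 genes with a mean count of at least 5 in Direct RNA 1 was called lower (7.67% over all genes), and of 74 such genes in cDNA 31 were (9.24%). No ribosomal protein gene passed the test of a difference between the platforms, so the counts do not show that the changes differ.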
